A study of Mus musculus with 10 samples.

Results

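The 10 core subunit genes of the Tip60 complex (*Kat5*, *Ep400*, *Trrap*, *Ruvbl1*, *Ruvbl2*, *Brd8*, *Dmap1*, *Epc1*, *Epc2* and *Ing3*) were followed in O9-1 cells, a mouse line derived from the cranial neural crest. They were found by symbol among the 43346 genes of the count table, and all 10 had exactly 1 row there. RNA sequencing covered 4 samples of wildtype cells, 3 Kat5 ko clones (Kat5/1 to Kat5/3) and 3 Ep400 ko clones (Ep400/1 to Ep400/3). Each ko line was a single clone. It was grown from a cell sorted for EGFP after co-transfection of a plasmid for Cas9 and a guide RNA with a separate EGFP plasmid. O9-1 cells are tetraploid. All libraries came from cells kept in medium that STO fibroblasts had preconditioned. Nothing separates the effect of an edit from other differences of a clone except that 3 clones were made per gene. The paper describes transfection, sorting and growth from single cells for the ko clones and not for the wildtype samples. In comparisons with wildtype this shared handling cannot be told apart from an edit.

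The Tip60 complex joins a pair of chromatin activities in one assembly. Kat5 is a MYST-type acetyltransferase that modifies histone tails, and Ep400 is a SNF2-type ATPase that places variant histones into nucleosomes and serves as the backbone of the complex. Trrap is a very large scaffold that docks transcription factors, Ruvbl1 and Ruvbl2 form a ring of AAA+ ATPases, Brd8 carries a bromodomain, and Dmap1 links the complex to its relatives. Epc1 or Epc2 holds Kat5 and the histone reader Ing3 in the catalytic module that acetylates nucleosomes. Several of these proteins also work elsewhere: Ruvbl1 and Ruvbl2 in the remodellers INO80 and SRCAP, Dmap1 in SRCAP, and Trrap in the coactivator SAGA.

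In both lines the edit fell into a coding exon ahead of the middle of the coding sequence, so that after a lost reading frame most of it lies behind a stop codon. In the GRCm38 assembly, *Kat5* (ENSMUSG00000024926) is encoded on the minus strand of chromosome 19, and its guide matched the non-coding strand at chr19:5607872-5607890, beside a TGG motif. *Ep400* (ENSMUSG00000029505) is encoded on the minus strand of chromosome 5, and its guide matched the coding strand at chr5:110719181-110719199, beside CGG. The following 80 bases of reference sequence surround each site, read along the coding strand from 5′ to 3′, with the bases matched by the guide in capitals.

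Kat5, chr19:5607848-5607927: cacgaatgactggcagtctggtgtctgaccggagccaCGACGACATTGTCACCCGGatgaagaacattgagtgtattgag

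Ep400, chr5:110719144-110719223: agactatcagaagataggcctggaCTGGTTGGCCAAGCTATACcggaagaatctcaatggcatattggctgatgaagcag

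For *Kat5*, 43.3% of the 1542 coding bases precede the break, in codon 223, and an insertion of 1 base brings a stop after 10 codons and one of 2 bases a stop after 7 codons. For *Ep400*, 35.1% of 9108 coding bases precede the break, in codon 1068, and the corresponding distances are 10 and 42 codons. Of the annotated transcripts, 9 of 12 of *Kat5* and 3 of 11 of *Ep400* hold the site, and every transcript of *Ep400* that holds it has 51 or 52 exons. As genotyped by the authors, the alleles of all Kat5 ko clones are shifted in frame. Those of the Ep400 ko clones are mixed: clone Ep400/1 has frameshifts in each allele, clone Ep400/2 mostly an in-frame deletion, and clone Ep400/3 mostly frameshifts beside an in-frame deletion. The paper places these in-frame deletions in the ATP binding site and proposes that they at least inactivate Ep400. Its RT-PCR showed a drastic reduction of the edited transcript in all clones. By immunocytochemistry it detected no Kat5 protein in the Kat5 ko clones and no Ep400 protein in the Ep400 ko clones. For Kat5 a Western blot gave the same result. Counts per gene do not tell edited from unedited RNA, nor RNA from protein.

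Between 30968945 and 48301792 reads per library were counted on genes. The core subunit genes had between 498 and 9776 reads each in any library, so that counting error alone is at most 4.48% of a value. Of 15 markers of the cranial neural crest and its mesenchyme, *Sox10* and *Foxd3* were below 1 read per 1000000 counted reads (CPM) in every group, whereas *Twist1*, *Prrx1*, *Pdgfra* and others were detected. Their summed level was 1842 to 2129 CPM in wildtype samples, 1795 to 2085 in Kat5 ko clones and 2777 to 3976 in Ep400 ko clones. The smooth muscle markers *Acta2*, *Tagln*, *Cnn1* and *Myh11* summed to 687 CPM in clone Kat5/1 and to at most 57.2 CPM in all other libraries, with *Cnn1* and *Myh11* below 1 CPM throughout. Markers of bone summed to less than 1 CPM in each library, those of cartilage to at most 55.9 CPM and those of glia, neurons and epithelium to at most 6.05, 3.44 and 3.27 CPM. In bulk RNA, fewer cells of a type and less RNA per cell cannot be told apart. The part of these differences in the results was not tested, and values without clone Kat5/1 are given below where its absence changed the call of a subunit or accessory gene.

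Levels of different subunit genes were compared per transcript length, as TPM (reads per base of annotated exon, scaled to the same total in each library). In wildtype cells the AAA+ ATPase genes led by a wide margin. *Ruvbl1* had 189 ± 17.9 TPM (SD, n = 4) and *Ruvbl2* 152 ± 22.1 TPM, and their ranges over the 4 samples overlapped. *Kat5* followed with 50.0 ± 4.86 TPM and *Ep400* with 37.2 ± 2.30 TPM, and the ranges of this pair were separate from each other and from their neighbours in the order. *Brd8* with 28.2 ± 4.91 TPM, *Trrap* with 27.4 ± 3.04 TPM and *Dmap1* with 27.3 ± 3.37 TPM did not differ beyond their spread. The genes of the catalytic module other than *Kat5* were the lowest, with 20.4 ± 4.51 TPM for *Epc2*, 18.8 ± 3.58 TPM for *Epc1* and 14.5 ± 1.88 TPM for *Ing3*, and here too the ranges of neighbours overlapped. The order in the middle depends on the length used: with the longest annotated transcript in place of all exons, *Brd8* had 50.4 ± 8.82 TPM and stood above *Ep400* with 36.5 ± 2.08 TPM, *Trrap* with 34.4 ± 3.67 TPM and *Dmap1* with 29.1 ± 3.66 TPM.

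The highest mean was 13.1 times the lowest. Among 13254 genes tested against wildtype in both knockouts, *Ruvbl1* stood at the 94.1st percentile of wildtype TPM, *Kat5* at the 74.0th and *Ing3* at the 42.9th, where the median gene had 19.7 TPM. In the Kat5 ko clones *Kat5* moved from rank 3 to rank 9 among the subunit genes, with 19.4 ± 3.65 TPM (SD, n = 3), or to rank 7 with the longest transcript as length. In the Ep400 ko clones *Ep400* moved from rank 4, or 5 with the longest transcript, to rank 10, with 13.6 ± 1.08 TPM. *Ruvbl1* and *Ruvbl2* kept ranks 1 and 2 in every group with either length.

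**Figure D1:**
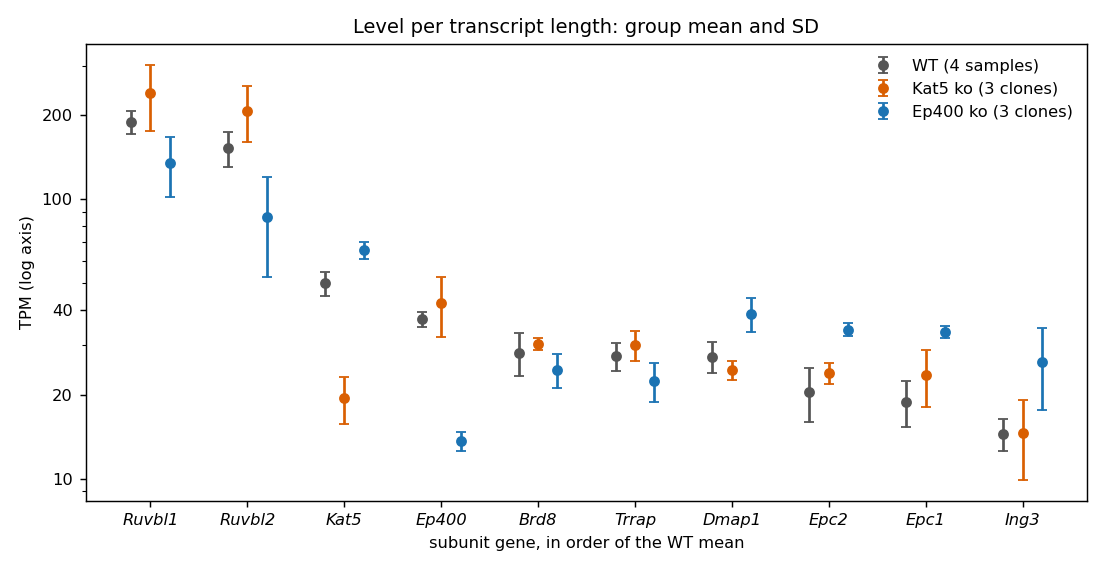
Level per transcript length of each core subunit gene in TPM (log axis), as mean and SD of 4 wildtype samples, 3 Kat5 ko clones and 3 Ep400 ko clones, in the order of the wildtype mean. *Ruvbl1* and *Ruvbl2* lie above all others in wildtype cells, and each edited gene drops towards the bottom of the order in its own knockout.

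The first question was whether the edited gene lost its transcript. Levels of one gene across libraries are given in CPM, here after TMM scaling over all 10 libraries. *Kat5* was at 58.3, 49.2, 53.1 and 57.6 CPM in the wildtype samples and at 23.0, 16.3 and 23.0 CPM in the Kat5 ko clones, in the order of their numbers. All clones lay far below the lowest wildtype sample, at 42.2%, 29.8% and 42.2% of the wildtype mean. edgeR's quasi-likelihood test gave a log2-fold change of −1.40 (standard error 0.17, 95% interval −1.79 to −1.01, adjusted p = 0.0207), the 16th smallest p among 13434 genes. Transcripts were thus reduced to 0.380 of wildtype (95% interval 0.290 to 0.498) and not absent.

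The fall of *Kat5* kept its size in each fit that left out a library (log2-fold change −1.47 to −1.24). Its call was lost without wildtype sample 1 (adjusted p = 0.103), wildtype sample 4 (adjusted p = 0.0985) or clone Kat5/3 (adjusted p = 0.0749), fits in which edgeR called only 1, 1 and 4 genes in total. Without clone Kat5/1, the clone with smooth muscle markers, it was −1.47 (adjusted p = 0.00471). *Kat5* shares 426 of its 3509 exon bases (12.1%) with *Rnaseh2c* on the opposite strand, and the strand setting of the count is not given in the sources used here. *Rnaseh2c* had 22.5 to 53.3 CPM in wildtype samples and 19.4 to 40.8 CPM in Kat5 ko clones.

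*Ep400* was at 161, 158, 159 and 168 CPM in wildtype samples and at 54.4, 60.4 and 58.1 CPM in clones Ep400/1, Ep400/2 and Ep400/3. The clones formed a narrow group at 33.7%, 37.3% and 35.9% of the wildtype mean. Clone Ep400/2, with its mostly in-frame deletion, thus had a transcript level close to that of the clone with frameshifts in each allele. edgeR's log2-fold change was −1.44 (95% interval −1.72 to −1.17, standard error 0.12, adjusted p = 0.00120), with the 10th smallest p among 13836 genes, and *Ep400* was called in all 7 fits that left out a library. The remaining level was 0.367 of wildtype (95% interval 0.304 to 0.443).

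**Figure D2:**
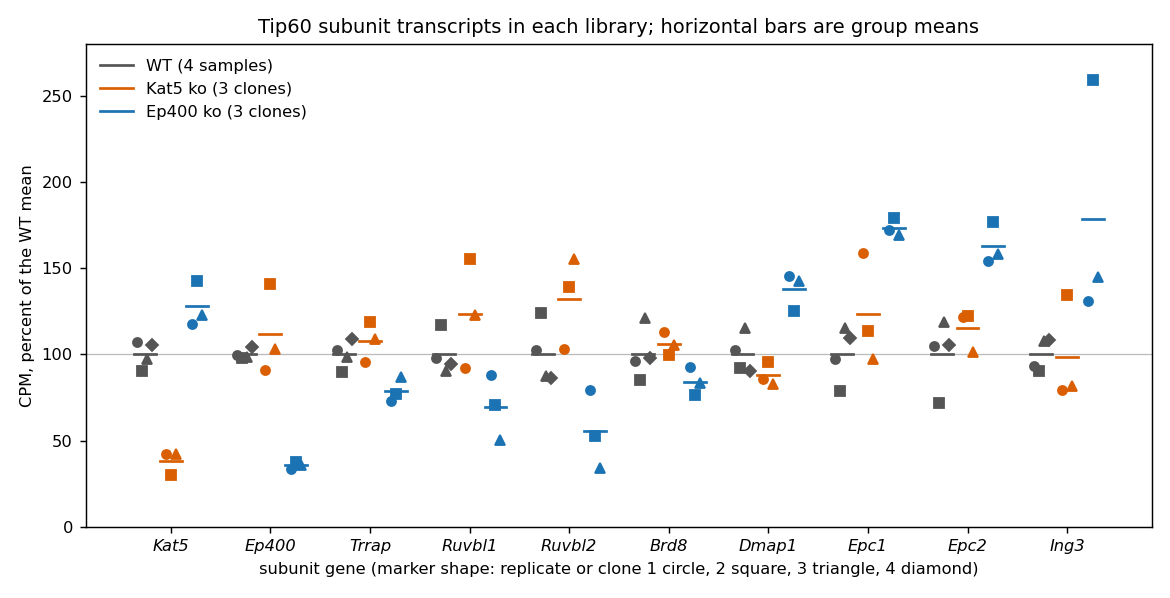
CPM of each core subunit gene in every library, as percent of the wildtype mean. Grey, orange and blue points are wildtype samples, Kat5 ko clones and Ep400 ko clones, marker shapes give the replicate or clone number, and horizontal bars are group means. *Kat5* lies at 29.8% to 42.2% in its own knockout and *Ep400* at 33.7% to 37.3%, and *Ing3* in clone Ep400/2 is the highest point with 259%.

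The next question was how the partner subunits responded to the loss of *Kat5*. None of the other 9 genes was called in the Kat5 ko clones, and their groups overlapped in each case. Their log2-fold changes ran from −0.19 for *Dmap1* to 0.40 for *Ruvbl2*, and 7 of them were above and 2 below zero. In this comparison edgeR called 0.179% of the 13434 genes higher and 0.447% lower, while 8.79% were higher and 10.8% lower without overlap between groups. The number of calls depended on clone Kat5/1, without which edgeR called 2654 of 13703 genes (19.4%) in place of 84, and *Kat5* was then still the only one of the 10 subunit genes called. DESeq2 called 1382 genes with all libraries. Of the 10 genes, *Kat5* alone had an unadjusted p of at most 0.05, and DESeq2 and limma-voom likewise called *Kat5* alone.

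*Ep400*, the reciprocal readout, had 147, 228 and 166 CPM in Kat5 ko clones 1 to 3. One clone was below, one far above and one inside the wildtype range of 158 to 168 CPM. The log2-fold change of 0.15 (95% interval −0.22 to 0.53, adjusted p = 0.616) leaves room for a fold of 0.857 to 1.44, and its sign turned without clone Kat5/2 (−0.04).

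Among the 9, *Ruvbl2* had the largest positive value, and *Ruvbl1* and *Epc1* followed with equal values. *Ruvbl1* was at 109, 131, 101 and 106 CPM in wildtype samples and at 103, 174 and 137 CPM in Kat5 ko clones 1 to 3. *Ruvbl2* was at 142, 171, 120.4 and 119 CPM in wildtype samples and at 142, 192 and 214 CPM in the clones. In clones Kat5/2 and Kat5/3 both genes exceeded each wildtype sample, and in clone Kat5/1 *Ruvbl1* and *Ruvbl2* lay within the wildtype range. Neither change passed the test (log2-fold change 0.30, adjusted p = 0.385, and 0.40, adjusted p = 0.258). *Trrap*, the scaffold, had 159 to 194 CPM in wildtype samples and 169, 210.5 and 193 CPM in the clones (log2-fold change 0.10, adjusted p = 0.697). *Brd8* had 79.1 to 113 CPM and 92.8 to 105 CPM (0.08, adjusted p = 0.786), so that every clone was inside the wildtype range. *Dmap1* had 20.3 to 25.9 CPM in wildtype samples and 19.2, 21.4 and 18.6 CPM in the clones (−0.19, adjusted p = 0.511).

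In the catalytic module, *Epc1* had 20.6 to 30.1 CPM in wildtype samples and 41.4, 29.7 and 25.5 CPM in the clones, with clone Kat5/1 alone above the wildtype range. *Epc2* had 21.3 to 35.3 CPM and 36.2, 36.4 and 30.2 CPM. *Ing3*, the histone reader, had 19.5 to 23.3 CPM in wildtype samples and diverged among the clones, with 17.1, 29.0 and 17.6 CPM. For these genes the log2-fold changes were 0.30, 0.20 and −0.02 (adjusted p = 0.437, 0.577 and 0.959). The clones therefore did not share one profile: Kat5/2 had 6 subunit genes above the wildtype range and 1 below it. Kat5/1 had 2 above and 4 below, and Kat5/3 had 2 above and 3 below, with *Kat5* itself below in each clone. Over 13322 genes, 26.6%, 32.7% and 31.9% were above the wildtype range in Kat5 ko clones 1 to 3, and 29.1%, 35.7% and 33.7% were below it.

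The same question was asked for the loss of *Ep400*. In the Ep400 ko clones *Epc1*, *Epc2* and *Ing3* rose, *Ep400* fell, and the other 6 genes did not pass the test. Of the 10 genes, 5 were higher and 4 lower than wildtype without overlap of the groups, and *Brd8* alone overlapped. Changes were also frequent in general: edgeR called 8.00% of 13836 genes higher and 5.72% lower, and 14.3% were higher and 16.0% lower without overlap. This comparison uses the same wildtype samples as the one above. Summed crest markers were higher in these clones as well, and 4 of the 13 tested markers were called higher. The called markers were *Pdgfra* (2.25, adjusted p = 0.00105), *Nr2f1* (1.61, adjusted p = 0.00281), *Tfap2a* (1.37, adjusted p = 0.0230) and *Snai2* (0.86, adjusted p = 0.0451). The list did not move as a whole: 9 were above zero and 4 below. Those below were *Ets1* (−0.57), *Snai1* (−0.47), *Sox9* (−0.40) and *Nes* (−0.31), none of them called. *Prrx1*, the marker with the highest mean, had 839 ± 136 CPM in wildtype samples and 1308 ± 686 CPM in these clones, and was not called. Single markers of other cell types were also called: the cartilage gene *Acan* went from 18.5 to 0.0725 CPM (adjusted p = 0.00337), the epithelial *Krt8* from 1.65 to 0.344 CPM (adjusted p = 0.0217) and the neuronal *Stmn2* from 0.402 to 2.40 CPM (adjusted p = 0.0493), and their part in the results was not tested.

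The rise of the catalytic module's partners was the part of the pattern that passed the test. *Epc1* was at 25.4, 20.6, 30.1 and 28.5 CPM in wildtype samples and at 45.0, 46.7 and 44.3 CPM in clones Ep400/1, Ep400/2 and Ep400/3. The clones lay close together above all wildtype samples, and the log2-fold change by edgeR was 0.84 (95% interval 0.48 to 1.20, standard error 0.16, adjusted p = 0.0133). *Epc1* shares 322 of its 4475 exon bases (7.20%) with the antisense gene *Gm28529*, which had at most 0.641 CPM in wildtype samples and 1.01 to 1.09 CPM in Ep400 ko clones. *Epc2*, the paralogue of *Epc1*, was at 31.2, 21.3, 35.3 and 31.3 CPM and at 45.9, 52.6 and 47.1 CPM, again without overlap (log2-fold change 0.75, standard error 0.18, adjusted p = 0.0308). The ratio of *Epc1* to *Epc2* in TPM was 0.855 to 1.01 in wildtype samples and 0.932 to 1.03 in the Ep400 ko clones. Their sum was 28.4 to 46.5 TPM in wildtype samples and 65.3 to 71.2 TPM in the clones.

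*Ing3* was at 20.1, 19.5, 23.2 and 23.3 CPM in wildtype samples and at 28.2, 55.7 and 31.1 CPM in the Ep400 ko clones. Clone Ep400/2 stood apart at 259% of the wildtype mean, and the others had 131% and 145%. Over all libraries *Ing3* changed by 0.88 on the log2 scale (95% interval 0.33 to 1.43, standard error 0.24, adjusted p = 0.0451), and without clone Ep400/2 it was 0.49 (adjusted p = 0.106).

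These calls rested on the full set of libraries. *Epc1* lost its call without wildtype sample 1 (adjusted p = 0.0503). *Epc2* lost it without wildtype sample 1, 2 or 4 or clone Ep400/2 or Ep400/3 (adjusted p = 0.0816, 0.0521, 0.0743, 0.0878 and 0.0513), and *Ing3* without any 1 wildtype sample (adjusted p = 0.0731 to 0.120). Their log2-fold changes stayed at 0.74 to 0.90 for *Epc1*, 0.62 to 0.83 for *Epc2* and 0.49 to 1.06 for *Ing3* in the 7 fits with a library left out.

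*Dmap1*, which sits in both Tip60 and SRCAP, had 20.3 to 25.9 CPM in wildtype samples and 32.6, 28.1 and 31.9 CPM in clones Ep400/1, Ep400/2 and Ep400/3. The groups were separate, and the log2-fold change of 0.50 (95% interval 0.16 to 0.85) missed the threshold (adjusted p = 0.0575). *Kat5* was at 64.2, 77.9 and 67.1 CPM in the same clones against 49.2 to 58.3 CPM in wildtype samples. Each clone was above each wildtype sample, and the log2-fold change was 0.40 (95% interval 0.10 to 0.70, adjusted p = 0.0768), so that neither *Dmap1* nor *Kat5* was called.

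The ATPase pair lay on the other side. *Ruvbl2* was at 109, 72.8 and 47.2 CPM in clones Ep400/1, Ep400/2 and Ep400/3, each below the lowest wildtype sample at 119 CPM. *Ruvbl1* was at 98.3, 78.8 and 56.2 CPM, each below the lowest wildtype sample at 101 CPM. The clones thus stood in the same order for both genes, and the distance from wildtype was larger for *Ruvbl2*, at 79.2%, 52.8% and 34.2% of the wildtype mean, than for *Ruvbl1*, at 87.9%, 70.4% and 50.2%. With this spread between clones neither change was called (*Ruvbl2* −0.81, 95% interval −1.43 to −0.19, adjusted p = 0.0801, and *Ruvbl1* −0.49, 95% interval −0.93 to −0.04, adjusted p = 0.127). Without clone Ep400/1, *Ruvbl2* was at −1.16 and was called (adjusted p = 0.0255).

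The ratio of *Ruvbl1* to *Ruvbl2* in TPM was 1.17 to 1.36 in wildtype samples, 0.980 to 1.39 in Kat5 ko clones and 1.37, 1.65 and 1.82 in clones Ep400/1, Ep400/2 and Ep400/3. *Ruvbl2* shares 310 of its 2902 exon bases (10.7%) with *Gys1* on the opposite strand. *Gys1*, which encodes glycogen synthase, had 68.9 to 80.8 CPM in wildtype samples and 38.3 to 47.0 CPM in Ep400 ko clones. If strand was ignored in counting, reads in the shared bases could not be told apart between *Ruvbl2* and *Gys1*.

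*Trrap* had 129.7, 136 and 154 CPM in clones Ep400/1, Ep400/2 and Ep400/3 against 159 to 194 CPM in wildtype samples, and the groups did not overlap (log2-fold change −0.30, 95% interval −0.60 to 0.01, adjusted p = 0.166). *Brd8* had 86.2, 71.2 and 77.7 CPM against 79.1 to 113 CPM (−0.21, adjusted p = 0.377). Clones Ep400/2 and Ep400/3 had no subunit gene inside the wildtype range, and clone Ep400/1 had *Brd8* alone inside it. Of 13322 genes, 38.9%, 35.0% and 28.4% were inside the wildtype range in Ep400 ko clones 1 to 3.

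**Figure D3:**
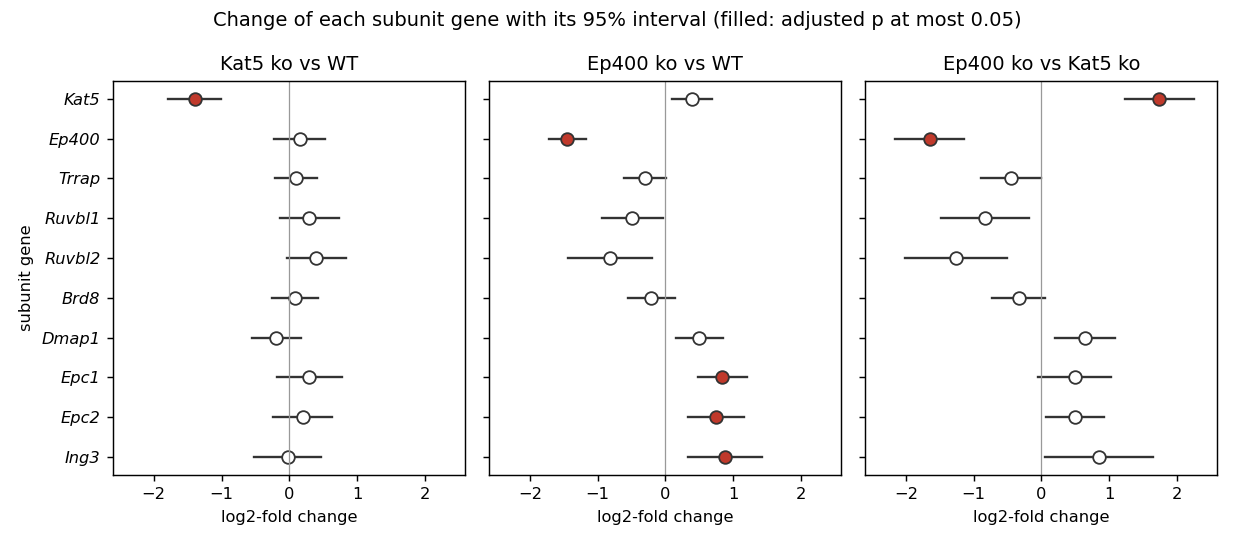
Log2-fold change of each core subunit gene with its 95% interval in the comparisons of Kat5 ko with WT, Ep400 ko with WT and Ep400 ko with Kat5 ko, filled where the adjusted p was at most 0.05. In the first panel *Kat5* alone is filled at −1.40, in the second *Ep400*, *Epc1*, *Epc2* and *Ing3*, and in the third *Kat5* and *Ep400*.

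Whether the response of a partner differed between the knockouts was tested by comparing the clones directly. Here *Kat5* was higher in Ep400 ko clones by a log2-fold change of 1.74 (adjusted p = 0.0211) and *Ep400* lower by −1.65 (adjusted p = 0.0216). edgeR called 4.22% of 13587 genes higher and 2.83% lower, and 19.8% were higher and 18.9% lower without overlap. None of the 8 partners was called, although *Ing3* alone overlapped between the groups and 6 of the 8 had an unadjusted p of at most 0.05. Passing this limit was frequent in general: *Trrap*, the last of these 6 in edgeR's order, had rank 4311 among 13587 genes. DESeq2 called *Ruvbl2* and *Dmap1* here, among 3039 genes called of 22321, and limma-voom *Ruvbl2*, among 1132 genes called of 13587. The largest differences were those of *Ruvbl2* (−1.26, 95% interval −2.02 to −0.50, adjusted p = 0.0559), *Ing3* (0.85, 95% interval 0.06 to 1.65, adjusted p = 0.135) and *Ruvbl1* (−0.83, 95% interval −1.48 to −0.19, adjusted p = 0.0912).

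*Epc1* and *Epc2*, called in the Ep400 ko clones against wildtype, differed between the knockouts by 0.49 (95% interval −0.04 to 1.02, adjusted p = 0.182) and 0.50 (95% interval 0.07 to 0.93, adjusted p = 0.111). A response of these paralogues that occurs with loss of *Ep400* and not with loss of *Kat5* was therefore not shown. Without clone Kat5/1 the partners *Ruvbl1* (−1.01, adjusted p = 0.0495), *Ruvbl2* (−1.42, adjusted p = 0.0404) and *Epc1* (0.71, adjusted p = 0.0495) were called in addition. That fit called 2537 of 14095 genes (18.0%), against 958 of 13587 with all clones. Without clone Kat5/3, Ep400/2 or Ep400/3 no subunit gene was called, *Kat5* (adjusted p = 0.0743, 0.0643 and 0.0773) and *Ep400* (adjusted p = 0.0795, 0.0684 and 0.0812) included.

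Each gene was also set beside the median of all tested genes on its chromosome in the same clone. Chromosome 19, which holds *Kat5*, was shifted in both knockouts and in opposite directions. The median log2 difference of its 460 genes from the wildtype mean was −0.09, −0.20 and −0.33 in Kat5 ko clones 1 to 3, and 0.23, 0.18 and 0.12 in Ep400 ko clones 1 to 3. Within each clone, *Kat5* minus this median was −1.15, −1.54 and −0.92 in the Kat5 ko clones and 0.00, 0.34 and 0.18 in the Ep400 ko clones. The median of edgeR's fitted changes over the chromosome was −0.21 in Kat5 ko and 0.29 in Ep400 ko clones, and subtracting it from the fitted change of *Kat5* left −1.19, and 0.11 in place of 0.40.

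For the called partners, subtracting the median of the fitted changes moved the value by at most 0.10. The changes of *Epc1*, *Epc2* and *Ing3* in Ep400 ko clones were 0.84, 0.65 and 0.78 after subtraction, and those of *Ruvbl1* and *Ruvbl2* were −0.58 and −0.90. *Dmap1* on chromosome 4, which was not called, went from 0.50 to 0.33 in these clones. Chromosome 6 holds both *Ing3* and *Ruvbl1*, whose values lay on opposite sides of its median in all Ep400 ko clones. Chromosome 5 holds both *Ep400* and *Trrap*, and its medians stayed between −0.06 and 0.09 in all ko clones. For *Epc1* and *Brd8* on chromosome 18, the medians of that chromosome ranged from −0.22 to 0.25 among the Kat5 ko clones.

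**Figure D4:**
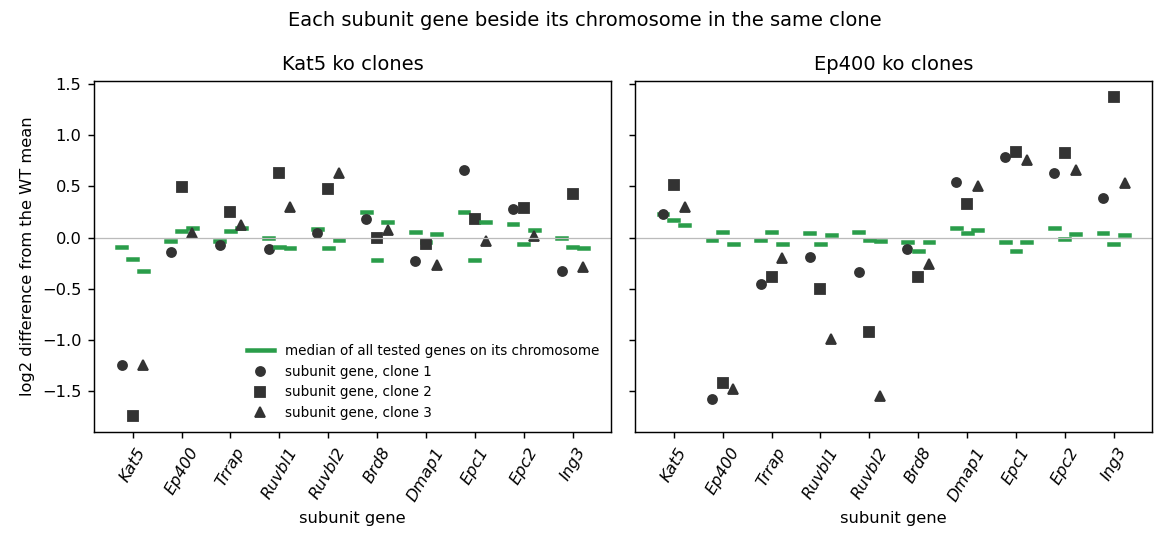
Log2 difference of each core subunit gene from the wildtype mean in each Kat5 ko and Ep400 ko clone (black markers) beside the median of all tested genes on the same chromosome in that clone (green bars). In Ep400 ko clones *Kat5* lies on the bar of chromosome 19 in clone 1 and 0.34 and 0.18 above it in clones 2 and 3, *Epc1*, *Epc2* and *Ing3* lie above and *Ep400*, *Ruvbl1* and *Ruvbl2* below their bars.

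Genes that work with the core subunits were examined as lists. Among 12 accessory subunits and histone variants of the complex, none was called in the Kat5 ko clones, with 8 above and 4 below zero and a median log2-fold change of 0.18 (all tested genes 0.00). By edgeR, *Actb* (0.38) and *Mrgbp* (0.37) had an unadjusted p of at most 0.05, and DESeq2 called 0 accessory genes as well. Without clone Kat5/1 edgeR called 1, *H2afv* (−1.46, adjusted p = 0.00471), in a fit that called 19.4% of all tested genes. In Ep400 ko clones 1 was called higher and 2 lower, with a median of 0.00 (all tested genes 0.04). *Meaf6*, a small subunit shared with other MYST acetyltransferase complexes, rose from 14.1 ± 0.50 CPM (SD, n = 4) to 20.7 ± 1.70 CPM (SD, n = 3; log2-fold change 0.59, adjusted p = 0.0345). *Morf4l2*, a relative of *Morf4l1* from the MRG family, fell from 383 ± 38.8 to 218 ± 42.0 CPM (−0.77, adjusted p = 0.0232). *H2afz*, which encodes the variant histone that the complex deposits, fell from 329 ± 23.9 to 161 ± 58.2 CPM (−0.99, adjusted p = 0.0345). These calls also rested on the full set of libraries. Without wildtype sample 1 or 4 no accessory gene was called in Ep400 ko clones, and without wildtype sample 2 or 3 *Morf4l2* alone was called. Between the knockouts, *Actb* was the only gene of this list called by edgeR (−0.98, adjusted p = 0.0458), and this call was not stable. Without clone Kat5/1 it was joined by *Morf4l2* (−0.88, adjusted p = 0.0469), *Mbtd1* (−0.81, adjusted p = 0.0462), *H2afz* (−1.43, adjusted p = 0.0400) and *H2afv* (1.26, adjusted p = 0.0459). edgeR then called 18.0% of all tested genes. Without any other single clone no accessory gene was called, and without the filter on low counts or without robust estimation the single call was *H2afz* or *Morf4l2* instead.

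Complexes that share subunits with Tip60 were counted against the shares called over all genes, 0.179% higher and 0.447% lower in Kat5 ko and 8.00% higher and 5.72% lower in Ep400 ko clones. Of 6 SRCAP genes, 3 of which are also on the accessory list, none was called by edgeR, DESeq2 or limma-voom in any comparison, with medians of 0.16 in Kat5 ko and 0.09 in Ep400 ko clones and 1 and 0 genes at an unadjusted p of at most 0.05. Of 12 INO80 genes, edgeR called none against wildtype (medians 0.12 and 0.07, with 1 and 3 genes at an unadjusted p of at most 0.05), DESeq2 called 1 in each knockout, and between the knockouts *Ino80e* was lower in Ep400 ko clones (−0.94, adjusted p = 0.0474).

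Of 18 tested SAGA genes, edgeR called none in Kat5 ko clones (median 0.08, with 4 at an unadjusted p of at most 0.05 and 1 called by DESeq2). In Ep400 ko clones 9 of the 18 were above and 9 below zero, with a median of −0.02. Of these genes *Usp22* and *Atxn7l3* were called lower (−0.88, adjusted p = 0.0235, and −0.52, adjusted p = 0.0379). *Atxn7l3* was also lower than in Kat5 ko clones (−0.71, adjusted p = 0.0488). Of 14 tested chaperone genes that assemble Ruvbl1, Ruvbl2 or Trrap, none was called in Kat5 ko clones by edgeR or DESeq2 or had an unadjusted p of at most 0.05 (median 0.16). In Ep400 ko clones the median was −0.16 and 2 genes fell. *Hsp90ab1*, a cytosolic HSP90, went from 5620.3 ± 192 CPM (SD, n = 4) to 3219 ± 784 CPM (SD, n = 3; −0.76, adjusted p = 0.0355) and *Wdr92*, a part of a prefoldin-like chaperone, from 24.3 ± 1.11 to 16.2 ± 1.34 CPM (−0.54, adjusted p = 0.0397).

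**Figure D5:**
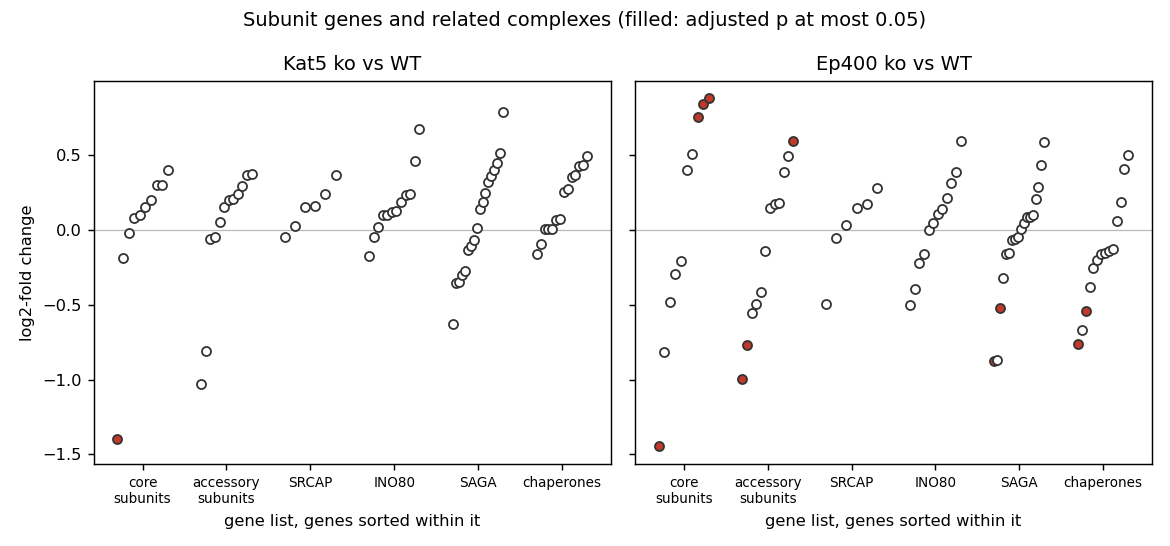
Log2-fold changes of the core subunit genes, accessory subunits, SRCAP, INO80 and SAGA genes and chaperones against wildtype, sorted within each list and filled where the adjusted p was at most 0.05. Loss of *Kat5* leaves *Kat5* itself as the single filled point, and loss of *Ep400* gives 4 filled core subunits, 3 accessory subunits, 2 SAGA genes and 2 chaperones.

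Genes with the most similar course over the 10 libraries were sought by the root mean square difference of log2 CPM relative to the wildtype mean, among 9205 genes with a mean of at least 10 CPM. Nearest to *Kat5* were *Rnd2* (difference 0.23), *Mrgprf* (0.26) and *Gnpda1* (0.26). Nearest to *Ep400* were *Galnt7* (0.17), *Naa10* (0.20) and *Fdxr* (0.23). *Galnt7*, for instance, had mean levels of 84.9 CPM in wildtype samples, 83.1 CPM in Kat5 ko clones and 33.0 CPM in Ep400 ko clones. Among the other 9 subunit genes the nearest were *Dmap1* to *Kat5* (0.72) and *Ruvbl2* to *Ep400* (0.50). A smallest difference among 9 genes cannot be set against one among 9205, because fewer genes give a larger minimum.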

How the data were processed

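Raw counts were deposited by the authors as whole numbers of reads per gene for all 10 libraries. Per the labels, 100 ng of total RNA entered a TruSeq Stranded mRNA preparation. The submitters' processing notes name bcl2fastq 2.20, STAR 2.7.3, R 4.2.1 and DESeq2 1.36.0 and the build mm10, and the counting program, its strand setting and the annotation are not given in the sources used here. The deposited normalized tables, which hold the same libraries scaled, were not used.

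Samples were grouped by their labels. Wildtype and ko libraries were compared in pairs of groups with R 4.3.3 and edgeR 4.0.16 (filterByExpr, TMM, glmQLFit with robust estimation, quasi-likelihood F-test), and p-values were adjusted over all tested genes by Benjamini-Hochberg. A gene was called at an adjusted p of at most 0.05. Wherever the text gives an adjusted p without a tool, it is from this test. CPM were scaled over all libraries, and TPM used the union of annotated exons of GENCODE M21 (GRCm38, the same build as mm10), which gave lengths for 42462 of 43346 genes. Intervals of changes cover 95%. The subunit genes and all lists were chosen with earlier results of these data known. From the lists, counts in each direction and the called genes were reported, at most 4 with the smallest p, and 3 genes of similar course per edited gene. *Actb* and *Mrgbp* in Kat5 ko clones were named after their values were seen. Of 15 chaperone genes, 14 were matched in the table.

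Within groups, libraries varied beyond counting error: over genes with at least 20 reads, chi-square divided by its degrees of freedom was 28.1 to 258, so none was counted as a repeat. The study treats separately generated samples as replicates, but how the wildtype samples were obtained is not given in detail, and p-values cover the spread between these samples. Libraries with the same number did not vary together (correlation of residuals −0.116 to 0.231), so that the numbers were not used as a block. Guide letters served to locate the target sites in the annotated transcripts, each with an exact match in transcripts of 1 gene. The procedure was tested on simulated data. Alternatives were DESeq2 1.42.0, limma 3.58.1 (voom), other scalings, no filter, 1 fit over all groups, blocking by replicate number, leaving out single libraries, subtraction of chromosome medians, the longest transcript as length, and, added after values had been seen, glmQLFit without robust estimation.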

Additional observations from a re-analysis of the deposited data

How the results depend on the processing

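The log2-fold changes of *Kat5* in Kat5 ko clones and *Ep400* in Ep400 ko clones were negative under each alternative. Calls depended, however, on which library was left out. Without clone Kat5/1 edgeR called 2654 of 13703 genes (19.4%) in Kat5 ko clones in place of 84. Between the knockouts it called 2537 of 14095 genes (18.0%) in place of 958. With each library left out, the number of called subunit genes was 0 to 1 in Kat5 ko clones, 1 to 5 in Ep400 ko clones and 0 to 5 between the knockouts, and that of accessory genes was 0 to 1, 0 to 3 and 0 to 5. *Kat5* was at −1.47 to −1.24 in Kat5 ko clones in these fits, *Ep400* at −0.043 (without clone Kat5/2, a turned sign) to 0.28 and *Ing3* at −0.31 to 0.11. With a replicate block, which leaves out the wildtype sample without a partner number, *Kat5* was at −1.37 (adjusted p = 0.109) and 0 subunit genes were called in Kat5 ko clones. In Ep400 ko clones the block left 1 subunit and 0 accessory genes, and between the knockouts 2 and 0. All genes called under the block numbered 0, 168 and 213, in place of 84, 1899 and 958. With a fit of all libraries, 6 subunit and 4 accessory genes were called between the knockouts, among 3555 genes called of 14079. *Ing3* in Kat5 ko clones was at 0.0072 in that fit. DESeq2 called 4 subunit and 3 accessory genes between the knockouts, among 3039 genes called of 22321. In Ep400 ko clones it called 6 subunit genes, with *Ruvbl2* and *Dmap1* in addition, among 3175 genes called of 22532. voom called 2 accessory genes between the knockouts, among 1132 genes called of 13587. *Ing3* in Ep400 ko clones was not called by voom (adjusted p = 0.0666), with DESeq2's size factors (adjusted p = 0.0502) or in the fit of all libraries (adjusted p = 0.0650). Scaling by library size alone gave 2 subunit genes without overlap in Kat5 ko clones in place of 1, and 7 in Ep400 ko clones in place of 9. Subtraction of chromosome medians moved *Kat5* to 0.11, *Dmap1* to 0.33 and *Ep400* to −1.51 in Ep400 ko clones. Summed wildtype TPM of the subunit genes were 565 with all exons and 558 with the longest transcript, although *Brd8* alone went from 28.2 to 50.4 TPM. The causes were not tested. Counting error is at most 4.48% for these genes.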
